A study of Homo sapiens with 3 samples.

Results

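The HOXA cluster genes HOXA2, HOXA3, HOXA4, HOXA5, HOXA7, HOXA9, HOXA10 and HOXA13 and the antisense RNA HOXA-AS2 were examined in A549 cells, a long-established line from a human lung adenocarcinoma, after treatment with cordycepin or cordyceps. These 9 genes, of 22435 named genes on the arrays, were chosen by name with earlier results of the same arrays known, the low signal of HOXA-AS2 with cordycepin among them, so every value here is a description. They were covered by 14 probes. With cordycepin, HOXA-AS2 was 8.63-fold lower than in control cells by its brighter probe and 2.73-fold lower by the other. Of the 8 coding genes, 0 differed by 2-fold, where 3.57% of all genes detected were 2-fold lower and 5.95% were 2-fold higher. With cordyceps, HOXA-AS2 was 2.45-fold lower by the brighter probe and 1.98-fold lower by the other. Again 0 of the 8 coding genes reached 2-fold, where 3.15% of all genes were lower and 4.19% were higher. A count of 0 of 8 lies near these shares.

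Control A549 cells received 0.1% DMSO, the vehicle, for 48 h. Treated cells received 60 μg/mL cordycepin, which is 3'-deoxyadenosine, or 100 μg/mL cordyceps, whose preparation and composition the labels do not give, each for 48 h. The medium of all 3 cultures held serum. The labels also list nicotinamide, troglitazone and zinc sulfate in it, whereas the paper's methods name serum and antibiotics and none of these additives. Total RNA of each culture was labeled with Cy3 and hybridized to 1 Agilent whole-genome array (n = 1 per condition), so that each difference is one between single arrays, without replicates and without a test. A lower signal can come from fewer cells that carry a transcript or from less of it per cell, and these cannot be told apart in RNA of whole cultures.

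HOX genes encode homeodomain transcription factors that give cells their position along the body axis. The genes of a cluster lie in the order in which they act, from the anterior, early end to HOXA13 at the posterior, late end, and retinoic acid is a known inducer of the anterior end. Trithorax proteins keep HOX chromatin active and Polycomb proteins keep it silent, and proteins of the PBX and MEIS families bind DNA together with HOX proteins. In the lung, HOXA5 is known for its part in development. The cluster also gives rise to long noncoding RNAs on the opposite strand. HOXA-AS2 is such an RNA. It starts among the starts of HOXA3, runs toward HOXA4, and is known from a leukemia line as an RNA that restrains apoptosis.

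HOXA-AS2 was the only member called with either treatment, so its promoter is shown with those of the genes on either side, HOXA3 and HOXA4. Each window runs from 250 bases before to 50 bases after the transcription start in RefSeq, build GRCh38.p14. The HOXA-AS2 window is chr7:27121669-27121968 on the plus strand. For HOXA3, which has several starts, the window nearest to that of HOXA-AS2 is shown, chr7:27122323-27122622 on the minus strand. The HOXA4 window is chr7:27130708-27131007 on the minus strand. Capitals mark matches, on either strand, to the TATA box (TATAAA), the core of the GC box (GGGCGG), the CCAAT box or a pattern of joint HOX and PBX binding (TGATNNAT).
HOXA-AS2: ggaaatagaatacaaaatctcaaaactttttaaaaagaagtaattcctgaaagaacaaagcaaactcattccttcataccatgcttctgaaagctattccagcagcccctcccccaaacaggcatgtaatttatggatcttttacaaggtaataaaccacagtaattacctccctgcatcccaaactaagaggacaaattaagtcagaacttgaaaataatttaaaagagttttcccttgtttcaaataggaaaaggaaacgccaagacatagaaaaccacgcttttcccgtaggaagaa
HOXA3: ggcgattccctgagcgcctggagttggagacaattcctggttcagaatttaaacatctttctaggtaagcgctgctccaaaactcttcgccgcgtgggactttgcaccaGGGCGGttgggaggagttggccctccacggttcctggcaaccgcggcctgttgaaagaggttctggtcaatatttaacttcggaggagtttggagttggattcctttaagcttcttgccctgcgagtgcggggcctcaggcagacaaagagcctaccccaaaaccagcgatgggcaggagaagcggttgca
HOXA4: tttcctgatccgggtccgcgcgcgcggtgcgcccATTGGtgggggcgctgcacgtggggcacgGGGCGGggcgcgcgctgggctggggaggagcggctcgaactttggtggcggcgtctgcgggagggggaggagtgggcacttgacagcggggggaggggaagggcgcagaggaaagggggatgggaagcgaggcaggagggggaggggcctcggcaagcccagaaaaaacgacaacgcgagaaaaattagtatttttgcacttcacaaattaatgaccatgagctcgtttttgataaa

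The HOXA-AS2 window held none of the 4 motifs (0 matches). Its GC content was 36%, compared with a median of 58.7% over 35116 promoter windows, and 5.34% of those windows had a lower GC content. It held 3 CG dinucleotides, compared with 15 in the HOXA3 window and 27 in the HOXA4 window. The HOXA3 window had a GC content of 55% and 1 GGGCGG, starting at -141. The HOXA4 window had a GC content of 63.3%, 1 GGGCGG at -187 and 1 CCAAT at -216. Over all windows of this length, 45.0% held GGGCGG, 34.6% held CCAAT, 11.53% held TATAAA and 7.40% held TGATNNAT. Motifs were searched without mismatches, and matches of different motifs were free to overlap. The table held windows for 8 of the 9 members, 15 in all, and none was matched for HOXA5.

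The 75th percentile of the signal was 260.1 in control cells, 224 with cordycepin and 260.2 with cordyceps. Between 42.1% and 49.0% of the probes were well above background, and the lowest such signal was 18.6, 21.8 and 34.5. All 6 epithelial markers and all 6 genes known to be high in this line were well above background on every array. Some of them differed between arrays: EPCAM was called lower with cordycepin (1066, 323 and 742 in control, cordycepin and cordyceps cells), and KRT19 and ALDH3A1 were called lower with cordyceps. Of 4 type II cell genes, SFTPA1 and SFTPB were not well above background on any array, and SFTPC and NKX2-1 were so in control and cordycepin cells only. Among markers of leukocytes, endothelium and fibroblasts, CD3E, COL1A2 and DCN were not well above background on any array. PECAM1 was so in control cells only, by 1 of its 3 probes, with a signal of 24.2. CDH5 and VWF were so in control and cordycepin cells only, with log2 ratios of 0.12 and 0.58 with cordycepin. PTPRC, CD14 and COL1A1 were well above background on all 3 arrays. By the brightest probe their log2 ratios were -0.26, -0.91 and -0.28 with cordycepin and -0.45, -0.63 and -0.70 with cordyceps, but a further PTPRC probe gave 0.62 and 0.21. The part of such markers in the values of the members was not tested.

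Signals below are the scanner software's processed signals in arbitrary units, with the software's own error estimate for the spot after ±, and ratios are log2 differences after each array was divided by its 75th percentile. The error estimate covers the spot alone. The difference between probes of a gene, over 3356 genes with 2 probes, gave each ratio a robust SD of 0.25 with cordycepin and 0.20 with cordyceps, here called the probe spread. The root mean square, which gives discordant pairs their full weight, was 0.35 with cordycepin and 0.34 with cordyceps. No such measure covers differences between cultures.

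**Figure D1:**
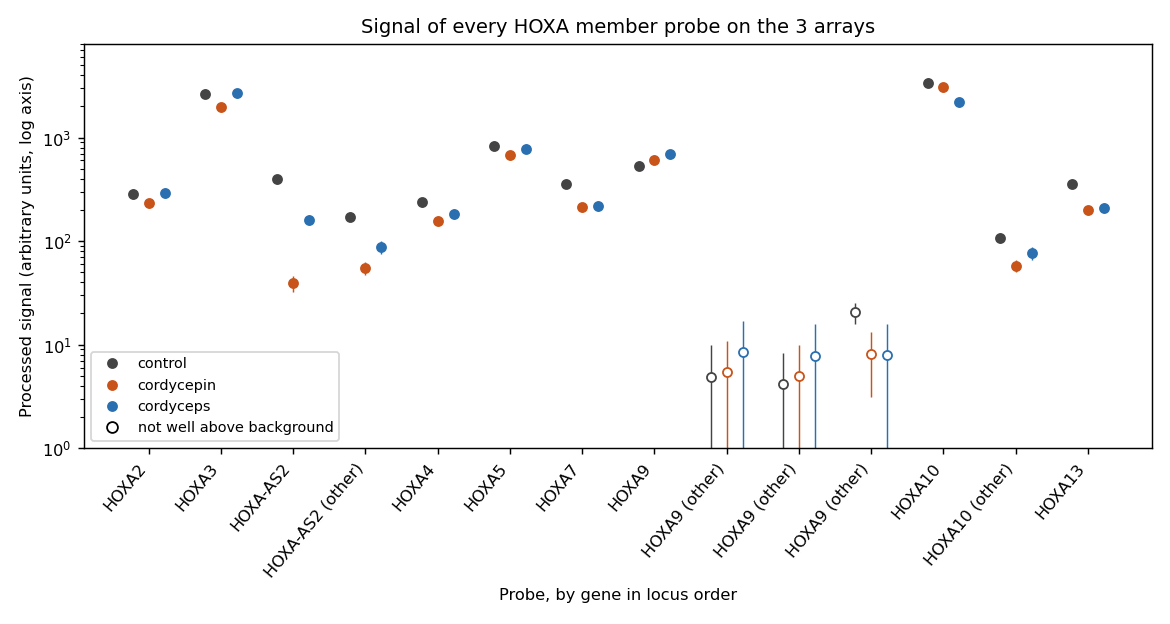
Processed signal (log axis, arbitrary units) of the 14 member probes on the control, cordycepin and cordyceps arrays, 1 array each; bars are the scanner software's error estimate and run below the axis where it exceeds the signal, and open points were not well above background. Both HOXA-AS2 probes are highest in control cells and lowest with cordycepin, and 3 of the 4 HOXA9 probes are open on every array.

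HOXA-AS2 was measured by 2 probes. The brighter probe had a signal of 395 ± 39.8 in control cells, 39.4 ± 7.02 with cordycepin and 161 ± 18.5 with cordyceps. The other probe had 172 ± 17.9 in control cells, 54.5 ± 7.67 with cordycepin and 87.0 ± 12.1 with cordyceps. Both probes were well above background on all 3 arrays, and both placed the conditions in the same order, control highest, cordyceps next and cordycepin lowest.

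With cordycepin, the log2 ratio of HOXA-AS2 over control was -3.11 for the brighter probe and -1.45 for the other, a fall of 8.63-fold and 2.73-fold. Both are beyond the probe spread of 0.25, but the probes differ on the size, and the median over both was -2.28. Among 14600 named genes measured on both arrays, the brighter probe ranked 4 from the lowest ratio. The sense genes on either side did not reach 2-fold. HOXA3, known for its part in forming the thymus and parathyroid, had a signal of 2651 ± 265 in control cells and 1964 ± 196 with cordycepin, a log2 ratio of -0.22. HOXA4, a patterning gene of the vertebrae, had 237 ± 24.0 and 158 ± 16.4, a log2 ratio of -0.38, beyond the probe spread. With median scaling of the arrays these became -0.48 for HOXA3 and -0.64 for HOXA4.

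HOXA2 and HOXA5 lay close to control with cordycepin. HOXA2, which patterns the hindbrain and the branchial arches, had a signal of 286 ± 29.1 in control cells, 233 ± 23.9 with cordycepin and 292 ± 30.5 with cordyceps. HOXA5 had 834 ± 83.5, 680 ± 68.1 and 780 ± 78.3. With cordycepin the log2 ratios were -0.09 for HOXA2 and -0.08 for HOXA5, both within the probe spread.

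The members from HOXA7 to HOXA13 were not uniform with cordycepin. HOXA7 had a signal of 359 ± 36.3 in control cells, 212 ± 22.0 with cordycepin and 219 ± 24.0 with cordyceps, and its log2 ratio with cordycepin was -0.55. HOXA13, known from limb and genital tract development, had 359 ± 36.2, 200 ± 20.6 and 210 ± 22.6, and a log2 ratio with cordycepin of -0.63. By the brightest probes these were the lowest ratios after HOXA-AS2, and they lay between the probe spread and a 2-fold change.

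HOXA9, a gene known from blood stem cells and leukemia, went the other way. Its brightest probe had a signal of 536 ± 53.7 in control cells, 612 ± 61.4 with cordycepin and 688 ± 69.3 with cordyceps, a log2 ratio of 0.41 with cordycepin and 0.36 with cordyceps. The 3 other HOXA9 probes carry the same accession and were not well above background on any array, with signals between 4.16 and 20.6, so the direction of HOXA9 rests on 1 of 4 probes. The files do not say which part of the transcript each probe reads.

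HOXA10, known from the development of the uterus, gave a different answer by probe. The brighter probe had a signal of 3378 ± 338 in control cells, 3080 ± 308 with cordycepin and 2203 ± 220 with cordyceps. The other had 107 ± 11.4, 57.8 ± 7.39 and 76.8 ± 10.7. With cordycepin the log2 ratio was 0.08 by the brighter probe and -0.67 by the other, one within the probe spread and the other beyond it. With cordyceps both were below control, at -0.62 and -0.48.

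**Figure D2:**
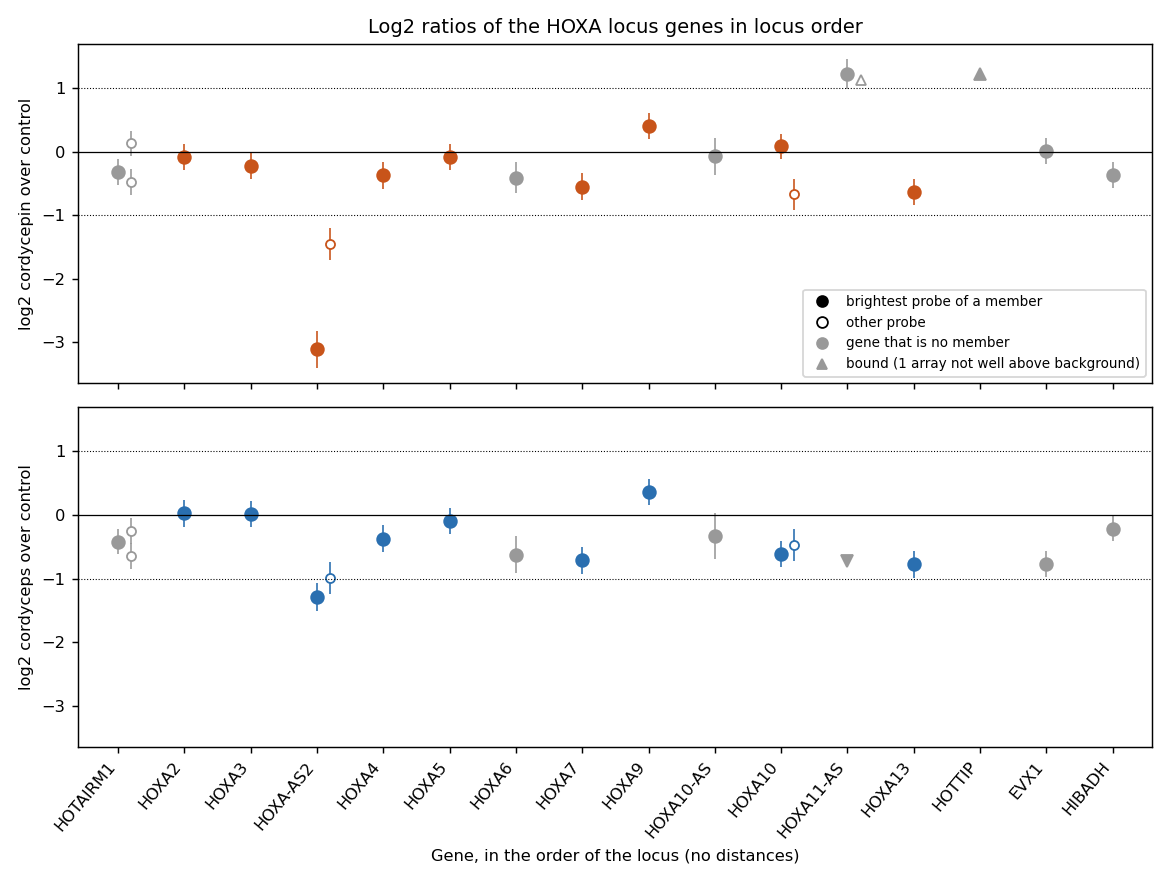
Log2 ratio of cordycepin (upper panel) and cordyceps (lower panel) over control for each gene of the HOXA locus in locus order; bars are the scanner software's error of the ratio, gray symbols are genes that are not members, open symbols are further probes, triangles are bounds, dotted lines mark 2-fold, and other genes of the locus that were well above background on no array are not drawn. HOXA-AS2 lies at -3.11 and -1.45 with cordycepin between HOXA3 at -0.22 and HOXA4 at -0.38.

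With cordyceps, the log2 ratio of HOXA-AS2 was -1.30 for the brighter probe and -0.99 for the other, or 2.45-fold and 1.98-fold lower than control. The brighter probe ranked 136 from the lowest among 13889 genes measured on both arrays. HOXA3, at 2689 ± 269, had a log2 ratio of 0.02, and HOXA2 had 0.03, HOXA5 -0.10 and HOXA4, at 183 ± 19.6, -0.37. HOXA7 and HOXA13 were again lower, at -0.71 and -0.77. Thus HOXA2, HOXA3 and HOXA5 lay within the probe spread of 0.20, and HOXA4, HOXA7, HOXA10, HOXA13 and HOXA-AS2 lay below it. Both comparisons use the same control array and the doses differ, so the values are set side by side without a comparison of the treatments.

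By the brightest probe and a 2-fold limit, 1 of the 9 members was lower with cordycepin and 0 were higher, where 3.57% of 15917 named genes were lower and 5.95% were higher. With cordyceps, 1 of 9 was lower and 0 were higher, where 3.15% of 15602 genes were lower and 4.19% were higher. In both comparisons the single call was HOXA-AS2, a value known when the members were chosen. The call with cordyceps was not made by its other probe, and was lost with normexp background correction, where the log2 ratio was -0.9999 and the count 0. With cordycepin, normexp gave -1.88. The median log2 ratio of the 9 members was -0.22 with cordycepin, beside -0.05 over all genes measured, and -0.37 with cordyceps, beside -0.11. With cordycepin, 4 members were within the probe spread, 4 were below it and 1 was above it, where 30.9% of all genes were below it and 25.0% were above it. With cordyceps, 3 members were within, 5 were below and 1 was above, where 40.0% of all genes were below and 22.4% were above.

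**Figure D3:**
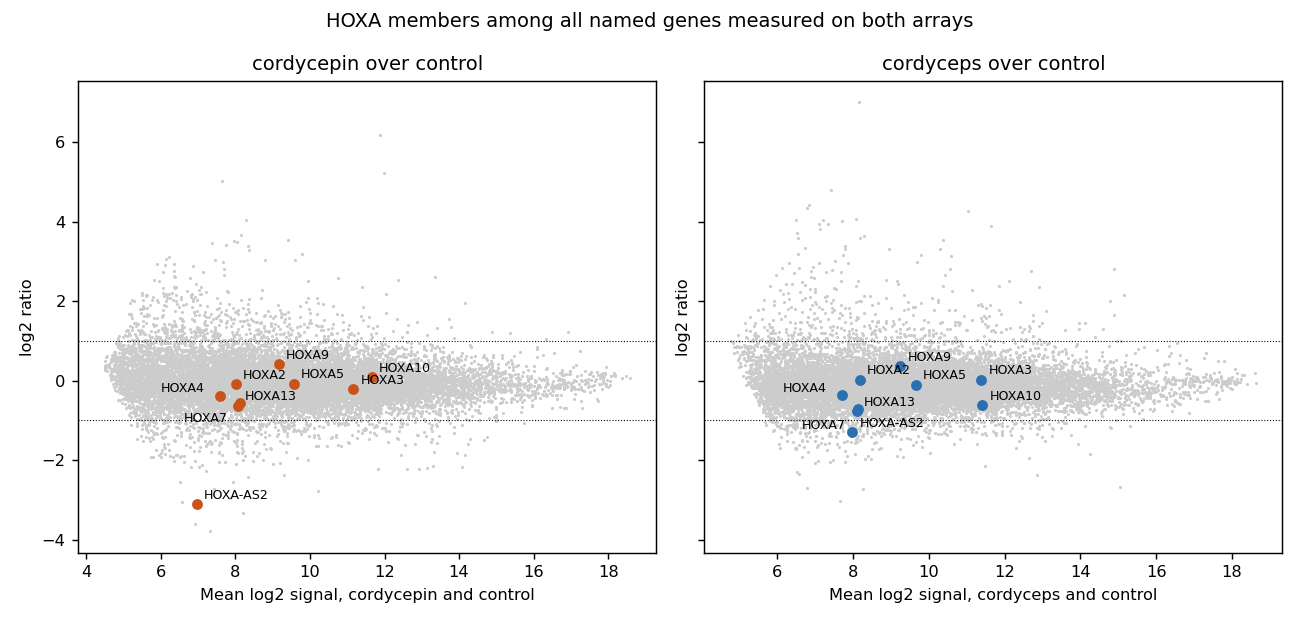
Log2 ratio against mean log2 signal for every named gene measured on both arrays (gray), with the 9 members named, for cordycepin (left) and cordyceps (right) over control; dotted lines mark 2-fold. HOXA-AS2 lies at the lower edge with cordycepin (-3.11) and nearer to the other genes with cordyceps (-1.30), and the 8 coding members lie between the lines.

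The place of a spot on the array was checked, since the corner with rows above 240 and columns above 82 is disturbed on the cordyceps array. There, the local background of 11.2% of the corner's spots was outlying, against 0% in control and in cordycepin cells. The brighter HOXA-AS2 probe lies outside the corner, and the median ratio of its block of the array was -0.02 with cordycepin and -0.09 with cordyceps. The other HOXA-AS2 probe lies in the corner, where its local background was 42 in control cells, 43 with cordycepin and 48, marked as outlying by the software, with cordyceps. HOXA13 lies outside the corner but its local background with cordyceps, 37, was also marked as outlying, beside 41 in control cells and 38 with cordycepin. No spot of the 14 member probes was itself an outlier (0 spots). The part of the local background in these ratios was not tested.

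**Figure D4:**
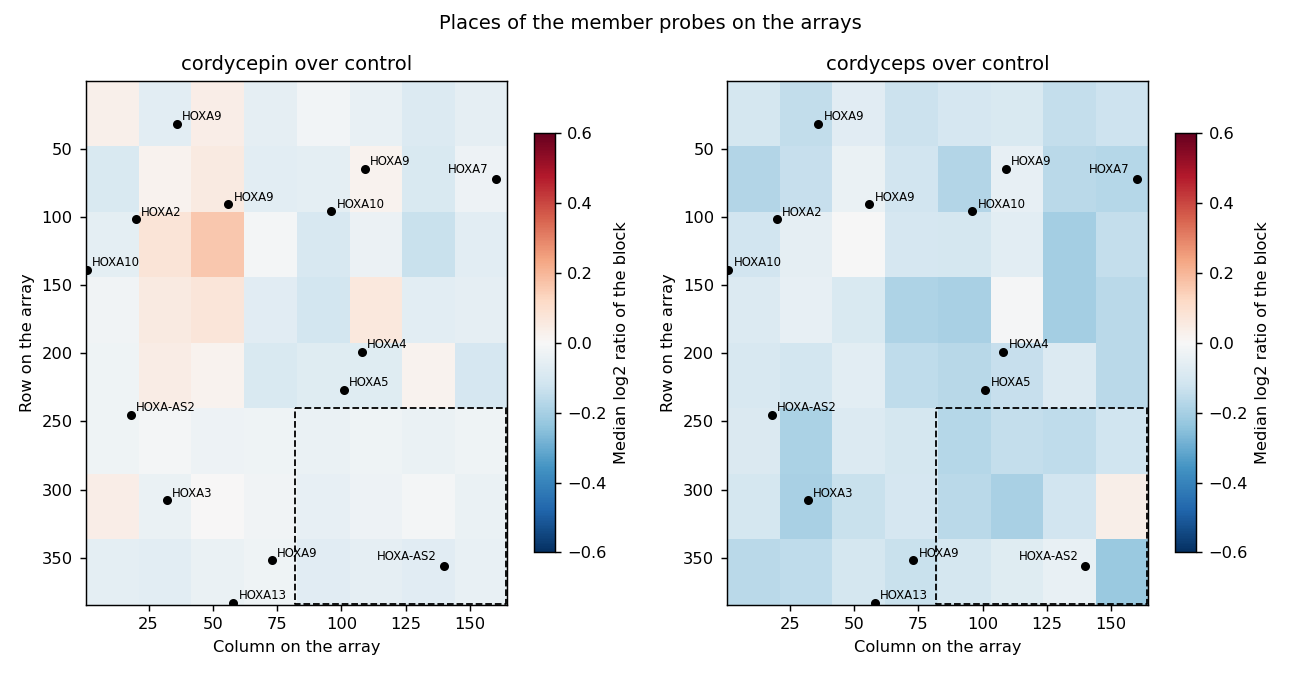
Places of the 14 member probes (points; row and column on the array) over the median log2 ratio of each of 64 blocks, for cordycepin (left) and cordyceps (right) over control; the dashed line bounds the corner. Only 1 member probe, the dimmer HOXA-AS2 probe, lies in the corner, and the block medians at the HOXA-AS2 probes lie between -0.09 and -0.02.

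Of the other genes of the HOXA locus, 11 of 13 had a probe. Compared with control, 2 of the 7 that were well above background on the control or cordycepin array were called higher with cordycepin, and 0 were lower. Both are noncoding RNAs of the posterior end. HOXA11-AS, which runs opposite to HOXA11, had a signal of 56.8 in control cells, 114 with cordycepin and 25.7 with cordyceps, the last not well above background. It was 2.33-fold higher with cordycepin, and its other probe, in the disturbed corner, gave at least 2.18-fold. HOTTIP, an RNA known to bring MLL complexes to the posterior HOXA genes, was well above background with cordycepin alone, at 37.4, and was at least 2.33-fold higher there by 1 of its 2 probes. With cordyceps HOXA11-AS was at least 1.65-fold lower, and HOTTIP was not measured, being well above background on neither array. HOTAIRM1, an RNA of the anterior end, had log2 ratios of -0.32, 0.13 and -0.47 by its 3 probes with cordycepin and of -0.42, -0.65 and -0.26 with cordyceps. HOXA6 had a log2 ratio of -0.41 with cordycepin and -0.62 with cordyceps. HOXA11 was not well above background on any array.

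In the HOXB, HOXC and HOXD clusters, 38 of 39 listed genes had a probe. With cordycepin, 1 of 28 above background was at least 2-fold lower and 2 were higher. HOXB2 was 2.14-fold lower by its brighter probe, but had a log2 ratio of -0.11 by the other. HOXB8 was 2.20-fold higher and the antisense RNA HOXC-AS3 2.93-fold higher. With cordyceps, 3 of 28 were lower and 1 was higher: HOXB5 was 2.52-fold, HOXB6 3.02-fold and HOXC-AS3 2.13-fold lower, and HOXD3, whose probe lies in the disturbed corner, was 4.84-fold higher. HOXC-AS3 thus lay on opposite sides of control with the treatments, with signals of 150 in control cells, 378 with cordycepin and 70.3 with cordyceps.

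Among the DNA-binding partners of HOX proteins, 9 of 10 genes on the arrays were above background. PBX4 was 2.35-fold higher with cordycepin. With cordyceps, MEIS2 was 2.22-fold lower. Of 18 genes of the Trithorax and MLL complexes, 0 were called with cordycepin by the brightest probe. The other DOT1L probe was 3.47-fold higher. With cordyceps only KDM6B was called by the brightest probe, 12.4-fold higher by a probe in the disturbed corner. Further probes of KMT2A (2.13-fold lower) and KDM6A (2.15-fold higher, in the corner) also reached 2-fold with cordyceps. Of 20 Polycomb genes, 0 were called with cordycepin by the brightest probe, whereas the other RNF2 probe was 2.13-fold lower. The median log2 ratio with cordycepin was 0.04 for the Trithorax list and 0.01 for the Polycomb list.

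Of 17 genes of retinoid signaling above background on the control or cordycepin array, 3 were at least 2-fold higher and 1 was lower with cordycepin. CYP26C1 and CYP26A1, enzymes that break down retinoic acid, were well above background with cordycepin but not in control cells, and were at least 11.0-fold and at least 5.71-fold higher. ALDH1A3, an enzyme that makes retinoic acid, was 2.13-fold higher. STRA6, the membrane receptor for retinol-binding protein, was 2.27-fold lower by its brighter probe, with signals of 15720 in control cells and 5975 with cordycepin, whereas its other probe had a log2 ratio of 0.06. The median of the list with cordycepin was -0.69 over 12 genes measured on both arrays. With cordyceps, CRABP2, which carries retinoic acid in the cell, was 2.33-fold higher by its brighter probe. Its other probe was not called, with signals of 38.7 in control cells and 33.4 with cordyceps, the last not well above background. The other genes of the list were not called.

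The genes whose pattern over the 3 arrays was most like that of HOXA-AS2 were sought among 11217 genes outside the HOX clusters and the corner, by the distance between their pairs of log2 ratios. The nearest was CDH16, a kidney cadherin, with a distance of 0.18, log2 ratios of -2.96 with cordycepin and -1.40 with cordyceps, and signals of 688, 76.3 and 262 on the control, cordycepin and cordyceps arrays. LINC02593 followed at 0.35 (-2.77 and -1.18). ID4, an inhibitor of helix-loop-helix factors, SGCA and IFNE were farther away, at distances of 0.69, 0.81 and 0.84. For HOXA10 the nearest were FCHO1, CALML4, SLC25A35, CHERP and ZSWIM6, at distances between 0.0027 and 0.024. Each likeness rests on 3 arrays and on the brightest probe of each gene. The other probe was not used. With cordycepin and cordyceps it gave -1.45 and -0.99 for HOXA-AS2, and -0.67 and -0.48 for HOXA10.

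**Figure D5:**
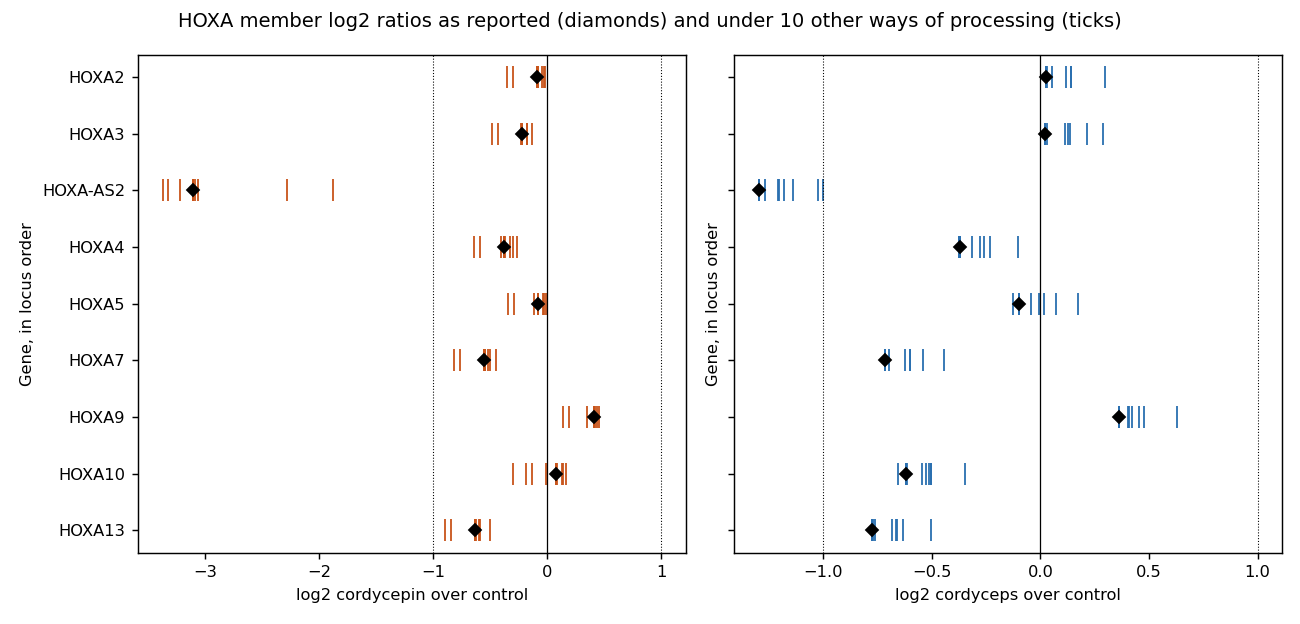
Log2 ratio of each member over control as reported (diamonds) and under the 10 other ways of processing that give a ratio (ticks), for cordycepin (left) and cordyceps (right); dotted lines mark 2-fold. HOXA-AS2 stays between -3.37 and -1.88 with cordycepin and between -1.30 and -0.9999 with cordyceps, and no coding member crosses a dotted line.

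These sizes depended in part on the scaling of the arrays. Median scaling in place of the 75th percentile moved the median of all genes from -0.05 to -0.32 with cordycepin and from -0.11 to 0.16 with cordyceps. HOXA10 was then below control with cordycepin, at -0.18, and HOXA5 above control with cordyceps, at 0.17. HOXA9 was above control under each of the scalings with both treatments. Over the alternatives, HOXA7 ranged from -0.81 to -0.45 and HOXA13 from -0.90 to -0.50 with cordycepin.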

How the data were processed

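Total RNA of A549 cells was hybridized to 1 Agilent array per condition. The authors deposited 1-colour scanner output of Agilent Feature Extraction 11.5.1.1, whose intensity values are background-subtracted and spatially detrended but not scaled between arrays, and a table of linear intensity values for the series. Its medians were 20.4, 21.1 and 16.9 for control, cordycepin and cordyceps cells, and 99.9% or more of its values lay within 1% of the scanner values, so it is on their scale, uncentred. The paper's methods name Cy3 and Cy5 labeling and GeneSpring without settings, while the scanner files hold 1 channel, Cy3. No authors' fold changes were among the files.

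Control spots and spots flagged as outliers were left out, log2 signals of a probe's spots were averaged (58191 of 58201 probes), and the 75th percentile of each array was subtracted. A probe counted as detected when 50% or more of its spots were well above background. Differences of 2-fold or more were called, as a bound where 1 array was not well above background. The bound set that array at the higher of its own signal and its lowest signal well above background. Accessions without versions were matched to RefSeq (GRCh38.p14) for 31097 probes. The array design uses hg19, so probe and gene positions are not given, and the coordinates of promoter windows are those of RefSeq on GRCh38.p14. The probe with the brightest mean stood for a gene, and every probe of a member is reported. With 1 array per condition no test was run. The members and the lists of related genes were chosen with earlier results of these arrays known. Named genes are all members, up to 4 called genes per list and direction, and the 5 genes nearest to HOXA-AS2 and to HOXA10. Values of some genes of the lists are not reported here. The alternatives were other scalings, background correction by normexp (on median spot signals, offset 50), the value table, outlier spots kept, detection rules, thresholds, probe rules, removal of block medians, and the corner left out. The calling step was run on simulated arrays, with shifts larger than the 2-fold limit and noise smaller than the probe spread. That run checks the calculation and does not measure how reliable a call is in these data. Python 3.11.15, numpy 2.4.6, pandas 2.3.3, matplotlib 3.10.9, R 4.3.3 and limma 3.58.1 (normexp) were used.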

Additional observations from a re-analysis of the deposited data

How the results depend on the processing

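With cordycepin, HOXA-AS2 was the 1 member called lower under every alternative except the 1.5-fold limit, which gave 2; its log2 ratio of -3.11 became -3.37 with median scaling, -2.28 as the median over its probes and -1.88 with normexp, which adds an offset of 50 to each signal. The median of the members became -0.48 with median scaling. With cordyceps, the count of 1 lower member became 4 at 1.5-fold, 0 at 3-fold and 0 with normexp, where HOXA-AS2 had -0.9999, just short of 2-fold. With median scaling HOXA-AS2 had -1.02 and the median of the members was -0.10. Median scaling shifts all ratios of a pair of arrays alike, and thresholds alter what is counted by construction. Of 160 values of the other members, 17 moved by more than the probe spread, 16 of them with median scaling and 1, HOXA10 with cordycepin, as the median over its probes (-0.30), and 0 reached 2-fold. With the corner left out, HOXA-AS2 had -3.11 and -1.18. Signal over background limits the ratios of dim probes, and precision is limited by having 1 array per condition. No paired analysis was possible because each condition has 1 array.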

Other observations

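A further probe of the arrays carries the name lnc-HOXA13-1:1, which was not matched to RefSeq and belongs to no member. Its signal was 55.3 in control cells, 51.5 with cordycepin and 15.1 with cordyceps, the last not well above background.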
